A study of Mus musculus with 41 samples.

Results

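The regions described here are stretches of the mouse genome in which every antibody of a neuronal chromatin study gave a called peak. All 27 peak lists on chromosomes 1 to 19 were pooled, overlapping or touching peaks were merged, and a merged region was kept when it held at least 1 peak of each of 8 targets. The targets were the histone marks H3K36me3, H3K4me1, H3K4me2 and H4K20me1, Flag-tagged LSD1n, Flag-tagged LSD1c, LSD1 and RNA polymerase II (Pol II). Of 133351 merged regions, 842 (0.631%) held all 8 targets. The number rested on the Flag lists at 1 h: it was 182 without that of Flag-LSD1n and 538 without that of Flag-LSD1c. The rule divides them at 24 lists, to set likely repeat or artefact regions apart from active loci: 168 were called in 24 or more lists and 674 in fewer. The peak calls themselves chose these regions, so the counts of targets and lists describe the choice and were not tested.

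The lists come from primary cortical neurons of the mouse, kept in vitro for 10 days and assayed by chromatin immunoprecipitation with sequencing after 0 h or 1 h in a 55 mM KCl bath, which depolarizes neurons. H3K36me3, H3K4me1 and Pol II were each measured in LSD1n WT and LSD1n KO neurons at 0 h and 1 h. H4K20me1 was measured in the same 4 conditions, with 2 lists (replicates 1 and 2) for WT at 1 h. H3K4me2 was measured in LSD1n WT alone, at both times. The M2 antibody against Flag was used in R26/LSD1n and R26/LSD1c neurons at both times, and the LSD1 antibody in wild type neurons at both times, in LSD1n WT at 0 h and in LSD1n KO with no KCl time given. The labels do not say what drives the tagged proteins, how the KO was made, or how many animals gave each culture.

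All groups but 1 hold 1 list, and nothing says that the 2 lists of the other group came from separate cultures. No difference between groups was therefore tested, and bracketed ranges are 95% exact Clopper-Pearson intervals that cover counting error only. In all 4 Pol II lists the name written in the file swaps WT and KO relative to the labels, so "labelled WT" and "labelled KO" are used for Pol II. The libraries held 6990017 to 34859557 tags and the lists 940 to 62945 peaks. No gene annotation of build mm9 was used here, so regions are given by position and the neuronal cell type was not checked against marker genes.

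LSD1 (KDM1A) is a histone demethylase, and LSD1n is its neuronal splice form with an extra small exon. H3K4me2 marks promoters and enhancers, H3K4me1 enhancers and the flanks of promoters, H3K36me3 the bodies of transcribed genes, and H4K20me1 broad domains that often include transcribed genes. Repeats that are under-represented in a genome assembly can gather tags with any antibody, because reads from many copies are placed on few.

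Holding all 8 targets was the rare end of a steep series. Of the merged regions, 97044 held 1 target, 17979 held 2, 5739 held 3, 3893 held 4, 2721 held 5, 2795 held 6 and 2338 held 7. Median width grew along the same series, from 501 bp with 1 target to 4383 bp with 6, 6134 bp with 7 and 9283 bp with 8. A wide region has more room for peaks, so width and number of targets are tied by the way regions are merged. Among the regions with 7 targets, just outside the rule, H3K36me3 was the missing one in 1426 (61.0%), Flag-LSD1n in 657 (28.1%) and Flag-LSD1c in 161 (6.89%). H3K4me1, the most widely called target, was the missing one in 4. The absence of 1 of 8 targets was thus mostly that of the H3K36me3 mark or of a Flag-tagged isoform.

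The 842 regions covered 10.9 Mb and were called in 13 to 27 lists, with a median of 21. Just inside the division by lists, 79 regions were called in exactly 24 lists and had a median width of 12.8 kb. Just outside it, 97 were called in 23 lists and had a median width of 12.3 kb. At the far end, the 33 regions called in all 27 lists had a median width of only 1.66 kb. Below 24 lists the median width was 9.11 kb, and 12 of 674 regions (1.78%) were narrower than 2.5 kb. At 24 or more lists it was 10.5 kb, and 39 of 168 (23.2%) were narrower than 2.5 kb. The class of 24 or more lists therefore held narrow and wide regions together. Whether its label as likely repeat or artefact holds for either was not tested, as no sequence or repeat annotation was used.

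**Figure D1:**
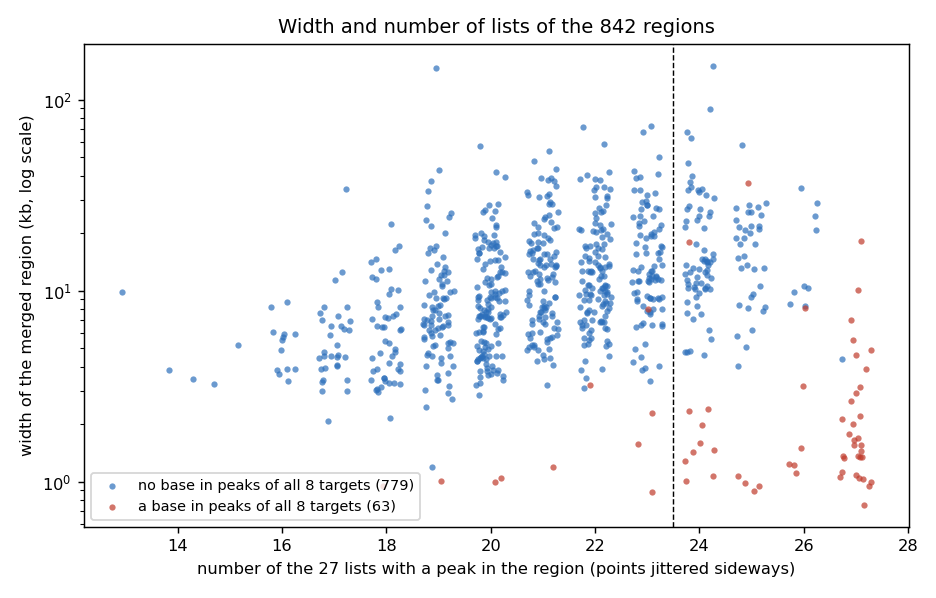
Width of each of the 842 regions (kb, log axis) against the number of lists that call it, with regions that have a base shared by all 8 targets in red and the others in blue (points are jittered sideways, and the dashed line marks the threshold of 24 lists). The 63 regions with a shared base are mostly narrow and lie mostly at 27 lists, while the other 779 are mostly wide at every number of lists.

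A second measure separated narrow from wide regions better: whether at least 1 base of the region lies in peaks of all 8 targets at once. It was planned as a stricter rule for membership, and its use to divide the regions was chosen after the values were seen. Of the 842 regions, 63 (7.48%) had such a shared base and 779 had none. Of the 63, 53 were in the class of 24 or more lists and 10 in the class of fewer. The remaining 115 regions of 24 or more lists had no shared base, a median width of 14.2 kb and a narrowest member of 4015 bp. By number of lists, a shared base was present in 32 of 33 regions at 27 lists, 6 of 15 at 26, 5 of 41 at 25, 10 of 79 at 24 and 4 of 97 at 23. The 63 and the 779 are described in turn.

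In the 63 regions with a shared base, peaks of all antibodies were stacked over a short length, and such stacking is how they were chosen. Median width was 1475 bp (interquartile range 1.07 to 2.54 kb), and 47 of the 63 were narrower than 2.5 kb, against 4 of the 779. The length common to all 8 targets, summed over a region, had a median of 175 bp (range 9 to 1132 bp). It was more than 100 bp in 55 regions and could lie in more than 1 stretch. The median region was called in 27 lists with 1 peak per list, and 40 regions had exactly 1 peak in each list that called them. Median covered length was 1304 bp for H4K20me1, 1223 bp for H3K4me1, 1094 bp for H3K36me3 and 1002 bp for H3K4me2. In the 779 it was 7942, 3774, 1488 and 2597 bp in the same order. The widest unbroken stretch of H3K36me3 was not narrower here, with a median of 1057 bp against 935 bp in the 779. The cover of a mark cannot exceed the width of its region.

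The widest regions called in all 27 lists lay near the first called positions of their chromosomes. The widest was chr9:3014848-3033060 (18.2 kb), with 113 peaks in the 27 lists and 1132 bp common to all 8 targets. Next came chr9:2999554-3009640 (10.1 kb, 66 peaks), chr18:3004334-3011399 (7.07 kb, 48 peaks), chr11:2999567-3005058 (5.49 kb, 46 peaks) and chr9:3033824-3038701 (4.88 kb, 52 peaks). Within 500 kb of the first peak of a chromosome lay 9 of the 63 regions (14.3%, 6.75 to 25.4), against 3 of the 779 (0.385%) and 0.401% of all merged regions. Within 500 kb of the last peak lay 4 of the 63 (6.35%, 1.76 to 15.5), 6 of the 779 (0.770%) and 0.411% of all merged regions. The narrowest of all 842 regions was chr19:61275106-61275862 (757 bp), with 27 peaks, 1 in each list. Most of the 63 lay away from these ends: chr9:24346052-24347114, chr6:103598615-103599654 and chr12:75904532-75906193 each had exactly 1 peak in every list.

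1 of the 33 regions in all 27 lists had no shared base. It was chr17:3080643-3085044 (4402 bp, 53 peaks), named because it is the only exception. It held 1 or 2 H3K36me3 peaks in each of the 4 lists, covering 1.46 kb in WT at 0 h, 2.30 kb in WT at 1 h, 2.96 kb in KO at 0 h and 1.58 kb in KO at 1 h. Pol II was called there with 2 or 3 sites in each of its 4 lists. Like the median region of the 63, it was called in 27 lists. It was wider than their median of 1475 bp and held more peaks than their median of 27.

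Regions with a shared base stood at the head of the site lists. Every entry has a deposited score of 1, so only the order of entries could be used, and its criterion is not given. Of the first 20 entries on chromosomes 1 to 19 of each of the 12 lists of LSD1, Flag and Pol II sites, 3 to 20 lay in the 63 regions (median 18). In the 15 histone lists this number was 0 to 13 (median 5). The region chr9:35112314-35113642 (1329 bp), with 1 peak in each of 27 lists, held the first or second entry of all 12 site lists. The region chr2:98506925-98508272 stood at places 1 to 7 and chr2:98502089-98505981 at places 2 to 18. For Flag-LSD1n at 1 h the median place of sites in the 63 regions was 1.33% down the list, against 38.7% for sites in the 779. In the 4 lists of the LSD1 antibody it was 0.455% to 1.90%, against 34.8% to 48.7%. Pol II differed, with 11.6% against 23.4% at 0 h in the list labelled WT and 13.8% against 20.9% in that labelled KO. At 1 h the order of the Pol II sites was the other way round: 37.7% against 18.9% (labelled WT) and 36.8% against 17.2% (labelled KO). The sites of the 63 regions thus led the LSD1 and Flag lists and not the Pol II lists at 1 h.

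The short Flag-LSD1n list at 0 h held a larger share of regions with a shared base than the long list at 1 h did. At 0 h, 182 of its 767 merged regions (23.7%) were among the 842, and 60 (7.82%) were among the 63 with a shared base. At 1 h, 804 of 4141 (19.4%) were among the 842 and 63 (1.52%) among the 63. The stacked regions were thus called almost completely at both times and made up a larger share of the shorter list.

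The 779 regions without a shared base were chosen for having no base common to all targets, and H3K36me3 was the target that overlapped the site targets least. Their median width was 9.91 kb and they held 1.36 peaks per calling list. H4K20me1 covered a median of 7.94 kb, or 82.7% of the region's width. H3K4me1 covered 3.77 kb (41.3%), H3K4me2 2.60 kb (27.1%) and H3K36me3 1.49 kb (15.6%). LSD1 sites together covered 0.529 kb, Pol II 0.309 kb, Flag-LSD1c 0.216 kb and Flag-LSD1n 0.201 kb, the length of a single site. A typical region was an H4K20me1 domain with 1 H3K4me2 block, 2 H3K4me1 blocks, 1 H3K36me3 block and 1 Flag-LSD1n site, each number being the median of that target.

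**Figure D2:**
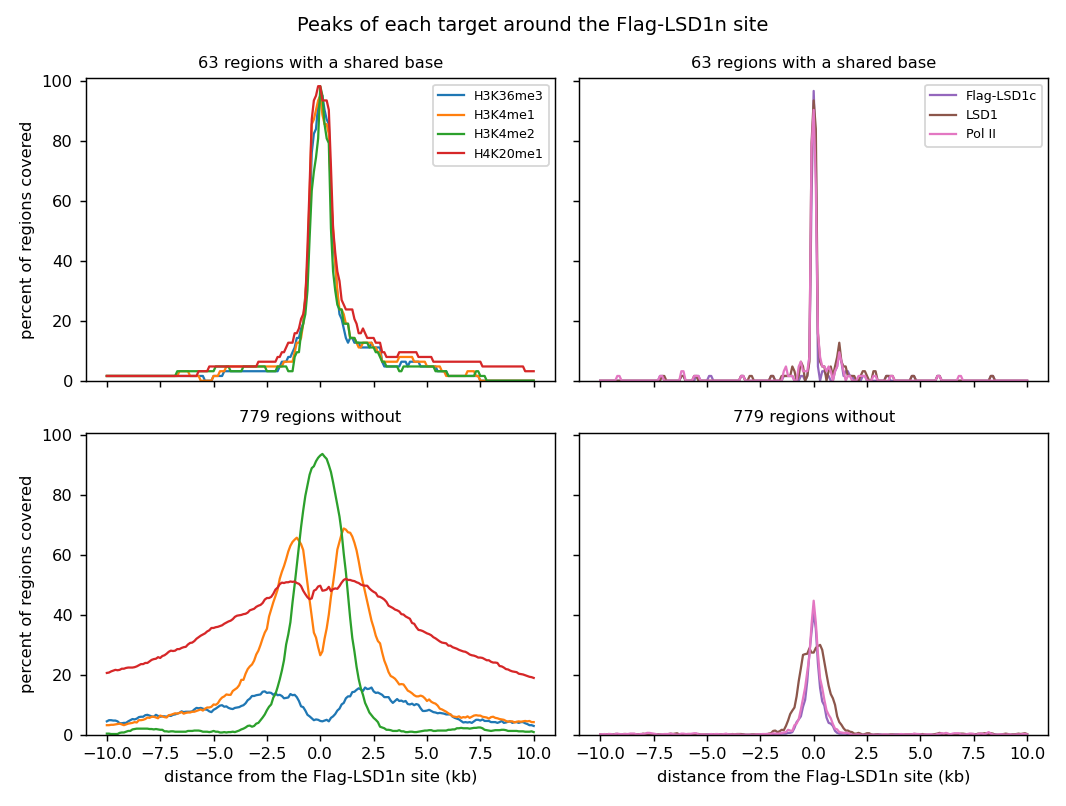
Share of regions (%) in which each target is called at a given distance from the Flag-LSD1n site (kb, up to 10 kb to either side), for the 63 regions with a shared base and the 779 without. In the 63, all targets peak at the site; in the 779, H3K4me2 peaks at the site, H3K4me1 has shoulders about 1.1 kb away and H3K36me3 is lower at the site (4.62%) than 2.6 kb to the left (14.5%) or 2.1 kb to the right (15.8%).

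Distances were taken from the first-listed Flag-LSD1n site of each region. In the 779, an H3K4me2 peak overlapped the site in 742 (95.3%, 93.5 to 96.6). The same held for 89.4% of all merged regions that hold Flag-LSD1n. Pol II overlapped the site in 483 (62.0%, 58.5 to 65.4; 65.1% of all regions with Flag-LSD1n), Flag-LSD1c in 488 (62.6%, 59.1 to 66.1; 47.2%) and LSD1 in 374 (48.0%, 44.5 to 51.6; 56.9%). For H3K4me2, Pol II and LSD1, these shares were thus within 10 percentage points of those of Flag-LSD1n regions in general, while Flag-LSD1c and H4K20me1 were higher. H4K20me1 overlapped the site in 448 (57.5%, 54.0 to 61.0), against 34% of all regions with Flag-LSD1n. The 779 had to hold a peak of each target somewhere, which raises such shares.

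Over the Flag-LSD1n site itself, H3K4me1 was often missing, in the 779 as in all regions with Flag-LSD1n. It overlapped the site in 284 of the 779 (36.5%, 33.1 to 39.9), against 38.4% of all regions with Flag-LSD1n, and its median gap to the site was 147 bp. At the middle of the site H3K4me1 was called in 26.6% of the 779, and at 1.1 kb to the left and right in 65.9% and 68.9%. When H3K4me1 had 2 or more blocks and none over the site, they lay on both sides in 363 of 417 regions and on 1 side in 54 (12.9%). Blocks of H3K4me1 on both sides with none over the site were thus present in 46.6% of the 779. The share of all regions with Flag-LSD1n that have such blocks was not computed.

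H3K36me3 seldom overlapped the site, in the 779 as in all regions with Flag-LSD1n, and its blocks mostly lay to 1 side. It overlapped the site in 48 of the 779 (6.16%, 4.58 to 8.09; 3.95% of all regions with Flag-LSD1n). Its median gap was 2.10 kb and its largest 75.2 kb. At the middle of the site it was called in 4.62% of the regions, and it was most frequent 2.6 kb to the left (14.5%) and 2.1 kb to the right (15.8%). Of 356 regions with 2 or more H3K36me3 blocks and none over the site, 318 (89.3%, 85.6 to 92.3) had them all on 1 side. The site stood near 1 end of the region, with a median of 1.41 kb on the shorter arm and 7.95 kb on the longer. H3K36me3 lay on the longer arm in 702 of the 731 regions where it was beside the site (96.0%, 94.4 to 97.3). H3K36me3 peaks help set the ends of a region, so the longer arm is in part defined by them. The longer arm also offers most of the room, so blocks placed without regard to the site would mostly lie there and on 1 side. The share with blocks on 1 side over all regions with Flag-LSD1n was not computed. Strand and gene positions were not used here.

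Overlaps between pairs of targets gave the same picture without a reference point. In the 779, H3K36me3 overlapped H4K20me1 in 96.7% of regions, H3K4me1 in 65.5% and H3K4me2 in 35.9%. With the site targets its overlaps were few: 86 regions for LSD1, 64 (8.22%) for Pol II, 52 (6.68%) for Flag-LSD1n and 45 (5.78%) for Flag-LSD1c. H3K4me2 overlapped each of the 4 site targets in 95.3% to 96.8% of regions. Among the site targets, Flag-LSD1c overlapped Pol II in 83.6%, LSD1 overlapped Pol II in 76.3%, Flag-LSD1n overlapped Pol II in 66.6%, Flag-LSD1n overlapped Flag-LSD1c in 65.6% and Flag-LSD1n overlapped LSD1 in 51.6%. Disregarding H3K36me3 gave 18 of the 779 regions (2.31%) a base common to the other 7 targets, and disregarding any other single target gave at most 3. Nearly all of the 779 thus lacked a common base whichever single target was left out. The shares of these pairs over all merged regions were not computed.

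**Figure D3:**
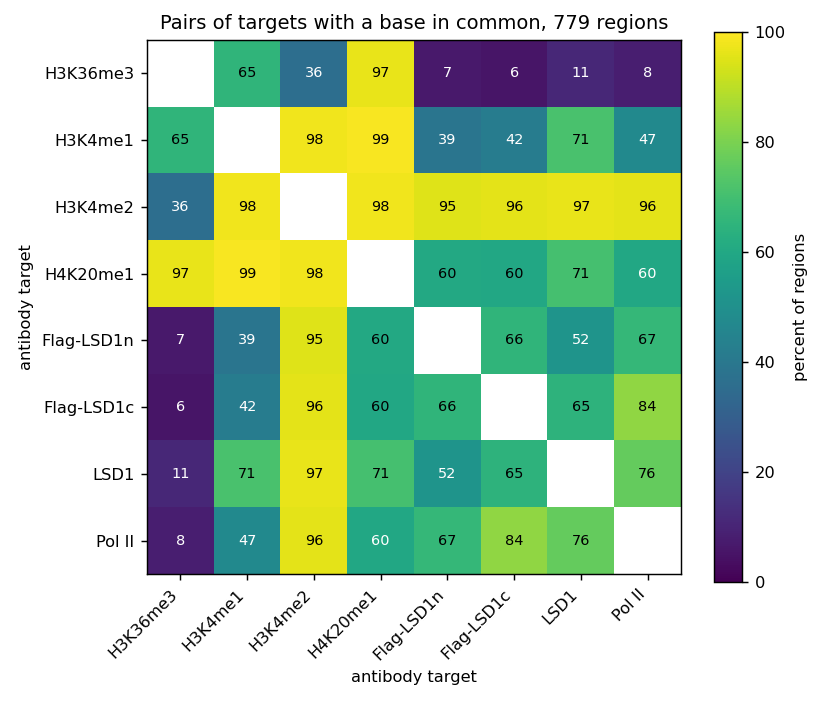
Share of the 779 regions without a shared base (%, colour and rounded number) in which a peak of the target in the row overlaps a peak of the target in the column by at least 1 bp. The lowest values lie between H3K36me3 and the 4 site targets, in 45 to 86 of the 779 regions.

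Regions that lacked H3K36me3 alone were smaller. The 1426 regions with the other 7 targets had a median width of 5000 bp and a median H4K20me1 cover of 3.22 kb. Around the Flag-LSD1n site they resembled the 779 for some targets and not for others. H3K4me2 overlapped the Flag-LSD1n site in 96.0% (94.9 to 97.0), Pol II in 66.5% (64.0 to 69.0) and H3K4me1 in 31.7% (29.3 to 34.2). For H3K4me2, Pol II and H3K4me1 the shares of the regions without H3K36me3 were thus within 5 percentage points of the 779. H4K20me1 overlapped the site in 41.9% (39.3 to 44.5) of them, against 57.5% of the 779, and LSD1 in 59.1% (56.5 to 61.7), against 48.0%. Flag-LSD1c overlapped it in 62.1% (59.6 to 64.7), against 62.6%. The 657 regions that lacked Flag-LSD1n alone were 10.1 kb wide at the median, with 7.32 kb of H4K20me1 and 1.67 kb of H3K36me3.

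The widest of the 842 regions was chr8:125418406-125568677 (150 kb, 24 lists). Its H4K20me1 cover was 130 kb in WT at 0 h, 145 kb in KO at 0 h, 144 kb in WT replicate 1 at 1 h, 6.09 kb in WT replicate 2 at 1 h and 99.2 kb in KO at 1 h. H3K4me1 covered 19.4 kb in WT and 21.0 kb in KO at 0 h, and 34.3 kb and 62.2 kb at 1 h. H3K36me3 covered 0.501 kb in WT at 0 h and 2.55 kb in WT at 1 h, and was not called in either KO list. Each of the 4 Pol II lists and both Flag-LSD1n lists called 1 site, and Flag-LSD1c was called at 0 h but not at 1 h. WT replicate 2 at 1 h stood far below the other H4K20me1 lists.

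Regions of fewer than 24 lists also reached this size. The widest was chr18:79161707-79307868 (146 kb, 19 lists), where H4K20me1 covered 102 kb in WT and 142 kb in KO at 0 h. At 1 h it covered 118 kb in WT replicate 1, 0.501 kb in WT replicate 2 and 11.8 kb in KO. The region was kept through a single H3K36me3 peak of 0.501 kb in WT at 1 h. The next widest were chr9:103012732-103085647 (72.9 kb), chr17:32351211-32422986 (71.8 kb), chr13:99628789-99696953 (68.2 kb) and chr4:136100778-136159198 (58.4 kb). In chr9:103012732-103085647 both Flag-tagged isoforms were called at 0 h alone.

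At 23 lists, the most that the class of fewer lists can hold, narrow and wide regions stood side by side. With a shared base there were chr9:123370278-123371852 (1575 bp, 23 peaks in 23 lists), chr4:28103677-28104557 (881 bp), chr5:26333010-26335288 (2279 bp) and chr17:31700686-31708733 (8048 bp). Without one, the widest were chr9:103012732-103085647, chr13:99628789-99696953, chr4:132565998-132616025 (50028 bp), chr2:167756829-167799276 (42.4 kb), chr2:29818467-29859356 (40.9 kb) and chr2:155968856-156008134 (39.3 kb). At 24 lists the widest were chr8:125418406-125568677 and chr11:59917269-60006589 (89.3 kb). As an example in more lists, chosen after its values were seen, chr11:102290257-102310962 (20.7 kb) was called in 26 lists, all except Flag-LSD1n at 0 h. H3K36me3 covered 5.15 kb of it in WT and 1.13 kb in KO at 0 h, and 9.01 kb and 2.00 kb at 1 h.

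Which of a target's lists called a region was not fixed by the rule, because 1 list per target was enough. For the 779, each list is set beside its background, the share of all merged regions with that target that the list called. The 842 regions are wide and hold many lists, so most shares lie above the background. H3K36me3 was called in 495 of the 779 in WT at 0 h (63.5%; background 43.3%) and in 656 in WT at 1 h (84.2%; 65.8%). The KO lists called 216 at 0 h (27.7%; 13.9%) and 241 at 1 h (30.9%; 11.9%). H3K36me3 was thus called in fewer regions with the KO lists, as it was among all its regions.

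**Figure D4:**
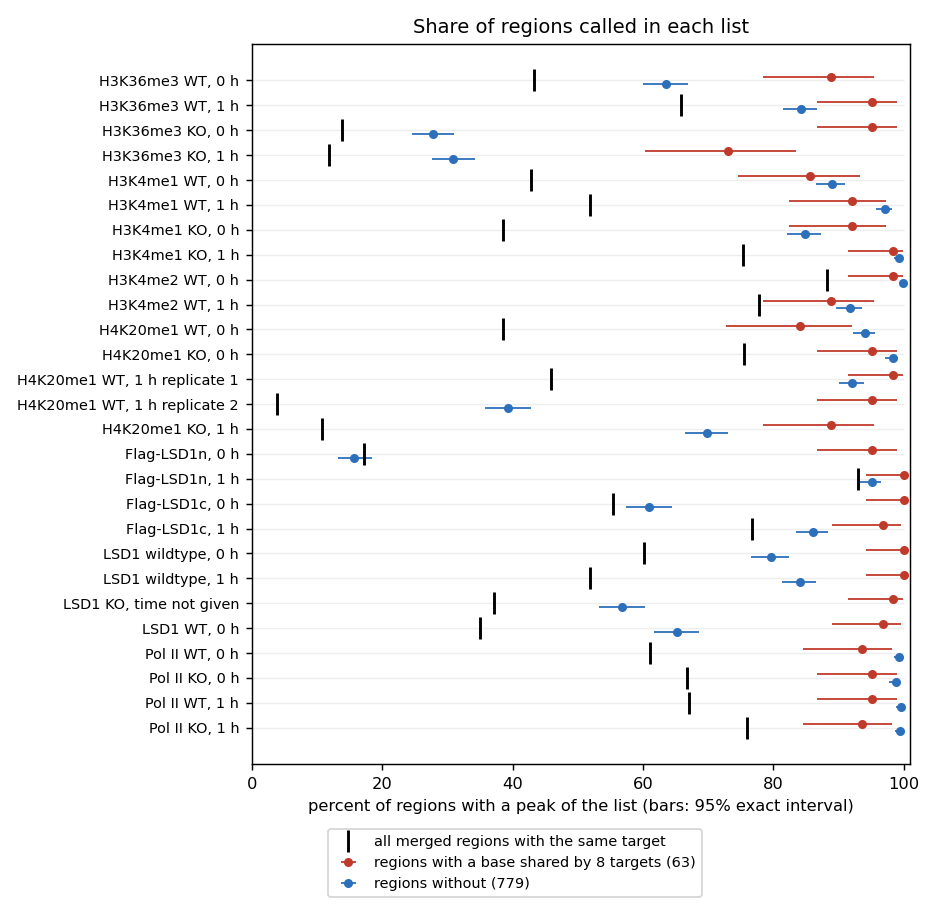
Share of regions (%) called with each of the 27 lists, for the 63 regions with a shared base, the 779 without, and all merged regions that hold the same target as background (black ticks; bars are 95% exact intervals). In the 63 every list stands at 73% or more; in the 779 the lowest lists are Flag-LSD1n at 0 h (15.7%), H3K36me3 in KO (27.7% and 30.9%) and H4K20me1 WT replicate 2 at 1 h (39.3%).

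The lists of H3K4me1 called most of the 779. In WT they called 693 at 0 h (89.0%; background 42.9%) and 757 at 1 h (97.2%; 51.9%). In KO they called 661 at 0 h (84.9%; 38.6%) and 774 at 1 h (99.4%; 75.3%). H3K4me2 was called in 778 at 0 h (99.9%; 88.2%) and 715 at 1 h (91.8%; 77.9%). Pol II was called in 770 to 776 of the 779 by each of its 4 lists, with backgrounds of 61.1% (labelled WT) and 66.7% (labelled KO) at 0 h and 67.1% and 76% at 1 h. These regions were thus called for H3K4me1 and Pol II at both times and with both genotype labels.

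H4K20me1 was called in 733 of the 779 in WT at 0 h (94.1%; background 38.5%) and 766 in KO at 0 h (98.3%; 75.5%). The 1 h lists called 718 with WT replicate 1 (92.2%; 45.9%), 306 with WT replicate 2 (39.3%; 3.91%) and 544 with KO (69.8%; 10.8%). The lists of the same group thus differed by more than the lists of WT and KO at 0 h. Of the 1705 merged regions of replicate 2, 366 (21.5%) were among the 842.

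Flag-LSD1n was called in 122 of the 779 at 0 h (15.7%; background 17.2%) and 741 at 1 h (95.1%; 93%), and in both in 84. For this isoform the shares were close to those over all its regions. Flag-LSD1c was called in 475 at 0 h (61.0%; 55.4%) and 671 at 1 h (86.1%; 76.8%). The LSD1 antibody called 620 in wild type at 0 h (79.6%; 60.2%), 655 at 1 h (84.1%; 51.9%), 508 in LSD1n WT at 0 h (65.2%; 35%) and 443 in LSD1n KO (56.9%; 37.1%). Of the 779, 608 were called in either of the last 2 lists. Both lists called 343 of these (56.4%; 41.0% of all merged regions called in either). LSD1n KO alone called 100 (16.4%; 31.6%) and LSD1n WT alone 165 (27.1%; 27.5%). The KCl time of the LSD1n KO list is not given.

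In the 63 regions with a shared base, each list called 46 to 63 of them. These regions were chosen for stacked peaks of all targets, which raises such numbers. The lowest number was that of H3K36me3 in KO at 1 h, with 46 (73.0%; background 11.9%). H4K20me1 in WT at 0 h called 53 (84.1%; 38.5%). Flag-LSD1n at 0 h called 60 (95.2%; 17.2%), where it called 15.7% of the 779. H4K20me1 WT replicate 2 called 60 (95.2%; 3.91%) and H3K36me3 in KO at 0 h called 60 (95.2%; 13.9%). Of the 4 shortest lists of the study, 3 thus called 60 of these regions each, and the other called the fewest of all lists. The 4 shortest lists, those of Flag-LSD1n at 0 h, H4K20me1 WT replicate 2 and H3K36me3 in KO at both times, accounted for 190 of the 334 missing calls (56.9%) in the class of 24 or more lists and for 2067 of 4420 (46.8%) in the class of fewer.

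Called length moved between lists in the 779 much as it did over all merged regions, and little in the 63. For H4K20me1 at 0 h, the KO list covered 8.50 Mb of the 779 and the WT list 5.88 Mb, a ratio of 1.44, against 1.87 over all merged regions and 1.17 in the 63. The KO list covered more bases in 736 of 775 regions called in either, against 82.8% of all regions called in either. At 1 h the ratio of KO to WT was 0.312 with replicate 1 and 4.10 with replicate 2, so its direction depended on the replicate. The 2 replicates differed 13.1-fold in the 779, 19.6-fold over all merged regions and 1.58-fold in the 63.

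For H3K36me3 the ratio of KO to WT in the 779 was 0.294 at 0 h and 0.177 at 1 h, against 0.277 and 0.146 over all merged regions. In the 63 these ratios were 1.04 and 0.897. The WT list covered more bases in 452 of 535 regions called in either at 0 h (81.5% of all regions called in either did so) and in 635 of 685 at 1 h (90.8%). From 0 h to 1 h more bases were called in WT in 527 of 747 regions called in either (70.5%; 63.7% of all regions). The ratio of 1 h to 0 h was 1.68 in the 779, 1.66 over all merged regions and 0.910 in the 63. Among the 63 at 0 h, 61 regions were called in either list. The KO list covered more bases in 30 of them and the WT list in 24. Over all regions called in either, these shares were 16.4% and 81.5%. At 1 h, 60 of the 63 were called in either list. The WT list covered more bases in 38 of them and the KO list in 14, against 90.8% and 8.11% of all regions called in either. Called in WT alone were 14 of the 60 (23.3%), against 83.3% of all regions called in either.

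H3K4me1 covered more of the 779 at 1 h than at 0 h in both genotypes. In WT the lists covered 1.41 Mb at 0 h and 2.12 Mb at 1 h, with more bases at 1 h in 613 of 773 regions called in either (79.3%; 62.2% of all regions). In KO the ratio of 1 h to 0 h was 2.37, with more bases at 1 h in 746 of 776 (96.1%; 84.8%). Over all merged regions the ratios of 1 h to 0 h were 1.36 in WT and 2.46 in KO, and in the 63 they were 1.18 and 1.07. H3K4me2 in WT covered less at 1 h, with a ratio of 0.686 in the 779, 0.753 over all merged regions and 0.863 in the 63. Fewer bases were called at 1 h in 615 of the 779 (64.9% of all H3K4me2 regions).

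**Figure D5:**
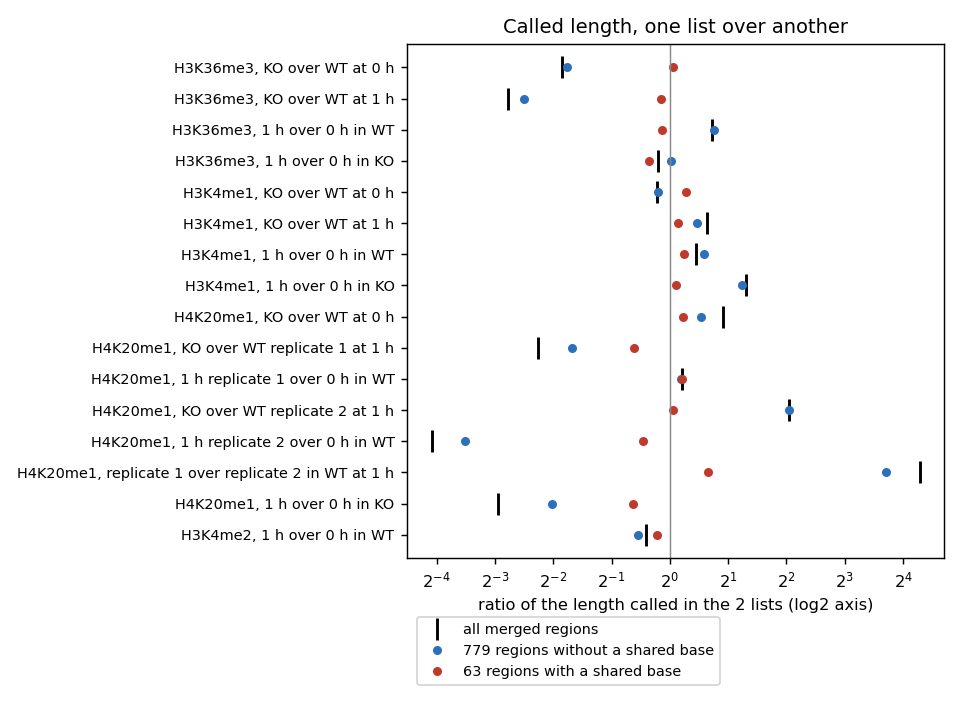
Ratio of called length between 2 lists (log2 axis) for 16 comparisons of histone lists, in the 63 regions with a shared base, the 779 without, and all merged regions. The 63 stay between 0.643 and 1.58, while the 779 run from 0.0873 to 13.1 and all merged regions from 0.0589 to 19.6.

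Across the 16 comparisons of histone lists, the ratios in the 63 regions ran from 0.643 to 1.58. In the 779 they ran from 0.0873 to 13.1, and over all merged regions from 0.0589 to 19.6. All 16 ratios in the 63, 7 in the 779 and 6 over all merged regions were within 1.6-fold of 1. The 63 are narrow (median width 1475 bp) and histone peaks start from 500 bp, so called length has little room to differ there. Several of the comparisons share a list, so they are not independent. Depth and the share of tags in peaks differ between the lists, and their part in these ratios was not tested.

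The 842 regions were spread over all 19 chromosomes, unevenly. Per 1000 merged regions they were fewest on chromosome 13 (3.05, from 18 regions) and chromosome 3 (3.19, from 23), and most on chromosome 11 (9.80, from 89), chromosome 17 (9.66, from 52) and chromosome 8 (8.70, from 62). The 63 with a shared base were most numerous on chromosome 9, with 7, and chromosome 14 had none. Within 100 kb of another region of its own kind lay 263 of the 779 (33.8%, 30.4 to 37.2) and 11 of the 63 (17.5%, 9.05 to 29.1). Each class was searched only against itself, and the 779 offer far more possible neighbours than the 63. Shares expected from number alone were not computed, so whether either class is more clustered was not tested.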

How the data were processed

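Peak lists of 27 of the 41 samples, in 26 groups taken from the labels, were used; GRO-seq and RNA-seq samples were not analysed here. Bowtie, HOMER and build mm9 are named in the submitters' processing notes; versions are not given in the sources used here. Per the file headers, the authors stitched histone peaks of 500 bp (minimum distance 1250 bp) and called sites of 200 bp (minimum distance 500 bp, 4-fold over the surrounding 10 kb), with fragments of 150 bp, a false discovery rate of 0.001 and 1 tag per position. The deposited values are genomic positions in bp, and the deposited score is 1 in every entry. Total tags were read from the headers. Positions count from 1.

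Peaks were merged, and target cover, overlaps (at least 1 bp), distances and shares were computed in Python 3.11.15 (scipy 1.17.1, numpy 2.4.6; plots with matplotlib 3.10.9). The calculation was tested on simulated lists. Named regions are those in all 27 lists (the 5 widest in full), the 10 of fewer than 24 lists with the most lists, the 5 widest of that class, and the 2 widest on each side of the threshold. Others are said to be chosen after their values were seen, or illustrate a count. The regions, lists and rules were chosen with earlier results of these data known. Alternatives were other thresholds, merging across 1 kb, stricter rules, subsets of lists and each list left out. The planned gene lists and motifs need an mm9 annotation and genome, which were not used here, so they were not run.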

Additional observations from a re-analysis of the deposited data

Results flagged for a closer look

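For H3K4me1 in the 674 regions of fewer than 24 lists, the difference of KO minus WT in regions called changed sign between the 2 times. The number called rose from 0 h to 1 h in both genotypes. At 0 h the KO list called 556 and the WT list 586, a difference of -30. At 1 h the KO list called 668 and the WT list 651, a difference of 17. The sign changed in the same way over all merged regions. There the KO list called 27919 and the WT list 31034 at 0 h, and 54510 and 37531 at 1 h. Each condition has 1 list, and the change of sign was not tested.

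In the 168 regions of 24 or more lists, Pol II calls went opposite ways by very few regions. From 0 h to 1 h the number changed by 1 in the lists labelled WT (165 to 166) and by -2 in those labelled KO (166 to 164). The difference of labelled KO minus labelled WT was therefore 1 at 0 h and -2 at 1 h. These differences were not tested, and the names written in the Pol II lists swap WT and KO relative to the labels.

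Chromosome X, which the rule leaves out, held 5 regions with all 8 targets among its 1637 merged regions. All 5 had a base shared by all 8 targets, and 4 were called in all 27 lists. Chromosome Y had none among 50 merged regions, the mitochondrial sequence none among 2 and unplaced sequences none among 118.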

How the results depend on the processing

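The number of regions with all 8 targets, 842, was 84 with the libraries at 0 h only and 225 with those at 1 h only, where fewer lists were pooled. It was 63 when a base shared by all 8 targets was required and 429 when 1 peak had to overlap peaks of all 8; the second rule was chosen after seeing the data. Leaving out each list in turn, also chosen after seeing the data, gave 182 (without Flag-LSD1n at 1 h) to 841, with 538 without Flag-LSD1c at 1 h. The count was 842 with touching peaks kept apart, 1158 with gaps of up to 1 kb merged, 847 with X and Y added and 587 without the KO lists. The class of 24 or more lists had 392 regions at a threshold of 22 lists and 48 at 26, and the class of fewer had 10 with a shared base required. Its median width of 9114 bp became 11132 bp with gaps merged, 7656.5 bp at a threshold of 22 and 9620.5 bp at 26. The 63 regions with a shared base were 41 at 1 h only, 43 at 0 h only, and 51 to 63 with each list left out. Without H4K20me1 WT replicate 1 or 2 at 1 h, the members numbered 813 or 837, the class of 24 or more lists 162 or 204 and the class of fewer 651 or 633. At a threshold of 22 lists, 16 of 27 shares per list in the class of fewer were lower than their main interval. No paired analysis was possible because all groups but 1 hold 1 list and no test was run. Depth and the share of tags in peaks limit which regions a short list can call.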
